A study of Mus musculus with 4 samples.

Results

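DNA methylation and Polycomb enzymes, the enzymes that write, copy and erase methyl marks on cytosine together with the core of a histone methyltransferase complex, were examined in AML12 cells grown in 2D and in 3D. The members were taken by gene symbol from the gene table. They are Dnmt1, Uhrf1, Dnmt3a, Dnmt3b, Tet1, Tet2, Tet3, Ezh2, Eed and Suz12, 10 of the 31828 genes in the table. AML12 is an established hepatocyte line from mice that carry a transforming growth factor alpha transgene, and all libraries come from this 1 line. The 2D group was grown as a layer in dishes and the 3D group was embedded in Matrigel, an extract of basement membrane, with 2 RNA-seq libraries per culture. Both groups received the same medium with serum, insulin, transferrin, selenite and dexamethasone, and both were held at the G1/S boundary by hydroxyurea at 1 mM, which blocks replication by lowering the supply of deoxynucleotides. The drug was present for 24 h in the dishes and for 36 h in Matrigel, so culture and treatment time cannot be told apart. The labels do not say that replicates were separate cultures, so the p-values given here measure only the spread between these libraries.

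DNMT1 copies methylation onto the new strand after replication, and UHRF1 brings it to half-methylated sites. DNMT3A and DNMT3B set methylation on unmarked DNA, while TET1, TET2 and TET3 oxidise methylcytosine as the opening step of its removal. EZH2, EED and SUZ12 form the core of Polycomb repressive complex 2 (PRC2), in which EZH2 methylates histone H3 and EED and SUZ12 are needed for its activity. Dnmt1, Uhrf1 and Ezh2 are known as genes whose transcription rises as cells enter the cell cycle, while adult liver cells divide rarely.

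RNA for 3 of these enzymes, Dnmt1, Uhrf1 and Ezh2, was lower in 3D by about the same proportion, and RNA for Tet2 and Tet3 was higher. Dnmt3a, Eed and Suz12 did not pass the test, and Dnmt3b and Tet1 were too low to be tested. Levels are in TPM, a share of all transcripts in a library scaled to a fixed total. They are corrected for transcript length, so that they can be set side by side between genes. Fold changes are differences in log2(TPM + 1) between 3D and 2D. Genes with a mean of at least 1 TPM were tested with limma, and a call is a Benjamini-Hochberg adjusted p-value under 0.05 over the 14116 genes tested. Of the members 8 were tested and 5 were called (62.5%), against 50.5% of all genes tested. With 3 called lower and 2 called higher, the members stand beside 27.1% of all tested genes lower and 23.4% higher in 3D. The share of members called is therefore near that of the whole table, and the description below turns on which members moved and by how much. Among the tested members the median size of the log2 fold change was 0.51, against 0.31 over all genes tested and 0.53 over all genes called. In bulk RNA, fewer cells of a type and less RNA per cell cannot be told apart.

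The cells were first checked against markers. Of the 9 hepatocyte markers 8 were tested, with 6 called higher and 2 called lower in 3D (100%), against 50.5% of all genes tested. The 2 called lower were the keratins Krt8 and Krt18, by 0.82 and 0.91 in log2. They made up most of the summed level of this list, 9447 to 9648 TPM in 2D and 5663 to 5742 TPM in 3D. The largest rises were those of Ttr, from 3.98 and 3.11 TPM to 88.1 and 80.9 TPM, and Trf, from 19.3 and 18.4 TPM to 227 and 231 TPM. Alb, the gene of serum albumin, was at 0.819 and 1.20 TPM in 2D and at 12.7 and 10.0 TPM in 3D, and Serpina1a was listed at 0 in both 2D libraries. Of the markers of other cell types, 7 fibroblast genes summed to 1.15 to 1.84 TPM and 4 endothelial genes to 0.788 to 1.47 TPM in any library. The 6 leukocyte genes summed to 21.8 to 22.8 TPM in 2D and 23.9 to 27.1 TPM in 3D, most of it Cd68, a lysosomal protein. Of the 3 leukocyte genes tested limma called 1 lower (33.3%), against 27.1% of all genes tested. It was Cd3e, a T cell receptor subunit, at 2.00 and 1.72 TPM in 2D and at 0.496 and 0.490 TPM in 3D. Cd3e passed the minimum for testing, 1 TPM on average, only through its 2D level. Limma called 0 higher, with 1 at an unadjusted p under 0.05, Cd68, at 19.0 and 18.3 TPM in 2D and at 25.5 and 21.4 TPM in 3D. Cd68 passed the threshold without 3D replicate 2 (adjusted p 0.0367) and after rescaling without mitochondrial and the top 20 genes (0.0478). The pan-leukocyte gene Ptprc was not tested, at 0.184 and 0.111 TPM in 2D and higher in both 3D libraries, at 0.296 and 0.280 TPM. Adgre1 was listed at 0 in both 2D libraries, and Col3a1 of the fibroblast list was listed at 0 in both 3D libraries.

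**Figure D1:**
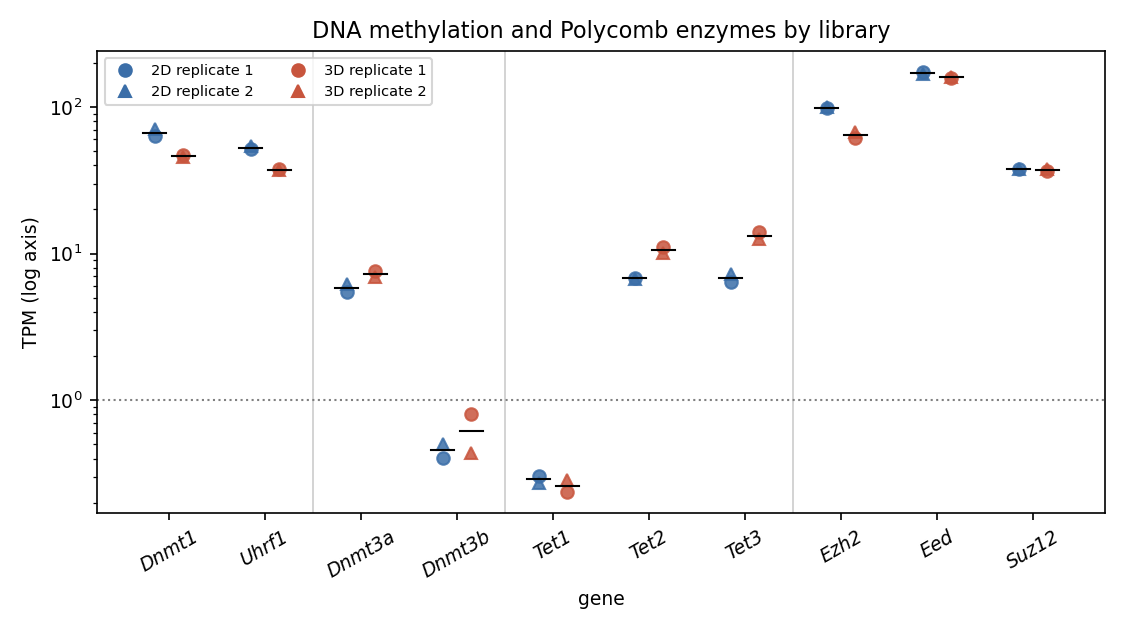
TPM of the 10 enzymes in each of the 4 libraries on a log axis, with replicate 1 as circles, replicate 2 as triangles, black bars at the mean of each culture, and a dotted line at 1 TPM, the minimum mean for testing. Dnmt1, Uhrf1 and Ezh2 sit lower in 3D, Tet2 and Tet3 sit higher, and Dnmt3b and Tet1 lie below 1 TPM in every library.

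Because some members moved together, the DNA before their start sites was searched for short motifs of cell cycle and general promoter factors. The windows are those of RefSeq on GRCm38.p6, 250 bases before to 50 after each start, and all 10 members were matched, with 15 windows in all. Dnmt1 and Dnmt3a have 3 windows each and Uhrf1 has 2, and 2 of the windows of Dnmt3a overlap each other. TPM are summed over a gene, so the start in use is unknown here. The E2F family drives S phase genes. Its letters TTTGGCG or TTTCCCG were found, on either strand, in 3 of the 15 windows, against 4.84% of all 32817 windows. The shares over all windows are not matched for CpG content, and both E2F strings contain CG. Member windows held 2 to 57 CpG sites, and all but the most upstream of Dnmt1 lay above the median of 7 over all windows. None of the motifs searched contains another. The matches are shown with the motif in capitals, in the direction of the gene.

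Dnmt1, the most downstream window, chr9:20952574-20952603, minus strand: gcgcggggcagcgTTTGGCGcgggctgtgc
Ezh2, chr6:47595009-47595038, minus strand: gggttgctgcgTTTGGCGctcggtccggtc
Suz12, chr11:79992876-79992905, plus strand: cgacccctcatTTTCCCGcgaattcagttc

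The first 2 of these lie just after the start, with the motif's first base at 34 in Dnmt1, counting the start itself as 1, and at 4 in Ezh2, and that of Suz12 begins at -219. Dnmt1 and Ezh2 were called lower in 3D and Suz12 was not called, and neither Uhrf1 window holds these letters. CCAAT, the motif of the factor NFY, was present in 8 of the 15 windows, against 37.4% of all windows. It occurs 1 time each in the windows of Tet3, which was called higher, and of Eed and Suz12, which were not called. It was present at least 2 times in 5 windows, against 11.7% of all windows. These 5 belong to Dnmt1, Uhrf1 and Ezh2, although the middle window of Dnmt1 has none. Overlapping matches on opposite strands were counted as 2, here and in the share of all windows. Such an overlap lies in the most downstream window of Dnmt1 and in the upstream window of Uhrf1, and each of these windows also holds a separate match. The count of at least 2 was chosen after the values were seen. Some of the matches from these 3 genes, and the one of Tet3, are shown with CCAAT or its complement ATTGG in capitals.

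Dnmt1, the most downstream window, chr9:20952637-20952666, minus strand: ccgaggcatatATTGGgggtatctccgggt
Uhrf1, the upstream window, chr17:56303296-56303325, plus strand: cacagcgccagCCAATcaggaatcaagagc
Uhrf1, the downstream window, chr17:56304195-56304224, plus strand: cccgggaggagCCAATcagcagcgagctct
Ezh2, chr6:47595076-47595105, minus strand: tctcgcatcctCCAATcggagaggcgcttg
Tet3, chr6:83441691-83441720, minus strand: ccgggcgcgggATTGGctggcgcgcgcgcc

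The window of Tet2 held 57 CpG sites, more than 99.8% of all windows, against a median of 7 per window. Its 250 bases before the start, where no exon is annotated, are shown because a unit that starts with cgcgaggg recurs through them, and the capitals mark the complement of GGGCGG, the motif of Sp1.

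Tet2, chr3:133544391-133544640, minus strand: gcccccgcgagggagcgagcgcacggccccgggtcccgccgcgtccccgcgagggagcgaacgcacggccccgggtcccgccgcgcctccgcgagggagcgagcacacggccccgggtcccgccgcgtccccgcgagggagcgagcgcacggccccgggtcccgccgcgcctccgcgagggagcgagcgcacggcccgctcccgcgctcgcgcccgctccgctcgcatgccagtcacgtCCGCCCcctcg

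Tet2 has neither E2F letters nor CCAAT in its window. GGGCGG was present in 35.6% of all windows and in most member windows. It is missing only from the windows of Ezh2 and Eed, the 2 most abundant members, and from both upstream windows of Dnmt1. All windows of Uhrf1, Dnmt3a, Dnmt3b, Tet1, Tet2, Tet3 and Suz12 hold it, as does the most downstream one of Dnmt1. TTTGAA, the element named CHR, was found in 17.9% of all windows and in those of Dnmt3b, Eed, Suz12 and the most upstream window of Dnmt1. TGCGCA, the core letters of NRF1, was found in 7.75% of all windows and in 1 member window, the middle one of Dnmt1. A match of letters describes these windows and does not show that a factor binds there.

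The maintenance pair moved in parallel. Dnmt1 (ENSMUSG00000004099, GRCm38 chromosome 9, 20907209 to 20959888) was at 63.3 and 70.4 TPM in the 2D libraries and at 47.0 and 45.3 TPM in the 3D libraries. Both 3D libraries lay below both 2D libraries, and the means were 66.9 ± 5.07 and 46.1 ± 1.19 TPM (SD, n = 2 each). Dnmt1 fell by 0.52 on the log2 scale (SE 0.07, 95% interval -0.71 to -0.34, limma adjusted p 0.00446).

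Uhrf1 (ENSMUSG00000001228, chromosome 17, 56303321 to 56323486) was at 51.7 and 53.9 TPM in 2D and at 37.6 and 37.1 TPM in 3D. The replicates lay close together and the cultures did not overlap. Uhrf1 fell by 0.49 on the log2 scale (SE 0.05, 95% interval -0.63 to -0.35, limma adjusted p 0.00244). In every library Dnmt1 was the more abundant of the pair, with a Dnmt1 to Uhrf1 ratio of 1.22 and 1.31 in 2D and of 1.25 and 1.22 in 3D. These ratios overlapped between the cultures, while both genes fell.

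The de novo methyltransferases were far lower. Dnmt3a (ENSMUSG00000020661, chromosome 12, 3806007 to 3914443) was at 5.47 and 6.25 TPM in 2D and at 7.64 and 6.93 TPM in 3D. Both 3D libraries lay above both 2D libraries, yet the log2 fold change of 0.27 (SE 0.11, 95% interval -0.01 to 0.55) did not pass the test (limma adjusted p 0.0917). Dnmt3b (ENSMUSG00000027478, chromosome 2, 153649450 to 153687730) was at 0.405 and 0.504 TPM in 2D and at 0.801 and 0.434 TPM in 3D. Its libraries overlapped between the cultures, its 3D replicates differed more than the culture means did, and its mean was under the minimum for testing.

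The share of all DNMT transcripts that came from Dnmt1 was 91.5% and 91.3% in 2D and 84.8% and 86.0% in 3D. Dnmt1 was 11.6 and 11.3 times as abundant as Dnmt3a in 2D, and 6.15 and 6.53 times in 3D. With 2 libraries in each culture the smallest p that an exact permutation test allows is 0.333, so ratios within a library are given as values without a test.

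Of the TET dioxygenases, both that were expressed above the minimum rose. Tet3 (ENSMUSG00000034832, chromosome 6, 83362373 to 83459084) was at 6.41 and 7.30 TPM in 2D and at 13.9 and 12.5 TPM in 3D, the largest change of any member tested. The cultures were well apart, and the ratio of the mean TPM was 1.93. Tet3 rose by 0.86 on the log2 scale (SE 0.10, 95% interval 0.59 to 1.13, limma adjusted p 0.00331), and 11.9% of all genes tested had a larger change in either direction.

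Tet2 (ENSMUSG00000040943, chromosome 3, 133463679 to 133545139) was at 6.78 and 6.74 TPM in 2D and at 11.2 and 10.1 TPM in 3D. The 2D libraries were nearly equal, and both 3D libraries lay above them. Tet2 rose by 0.58 on the log2 scale (SE 0.09, 95% interval 0.34 to 0.81, limma adjusted p 0.00674). Tet1 (ENSMUSG00000047146, chromosome 10, 62804570 to 62908996) was at 0.306 and 0.273 TPM in 2D and at 0.238 and 0.285 TPM in 3D. These values overlapped and it was not tested.

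Tet2 and Tet3 stood at the same level in 2D, where their libraries overlapped, and Tet3 was above Tet2 in both 3D libraries. Summed over the family, TET transcripts were at 13.5 and 14.3 TPM in 2D and at 25.3 and 22.9 TPM in 3D, while the DNMT sum was at 69.1 and 77.2 TPM in 2D and at 55.4 and 52.7 TPM in 3D. DNMT transcripts therefore outnumbered TET transcripts 5.12 and 5.39 times in the 2D libraries and 2.19 and 2.30 times in the 3D libraries. The methyltransferases remained the more abundant family in both cultures.

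**Figure D2:**
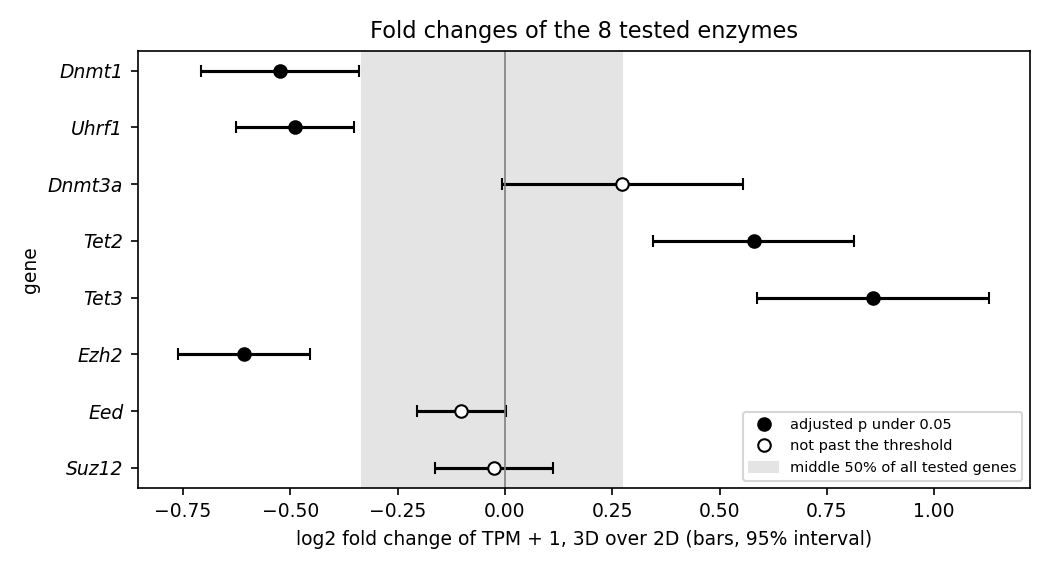
Difference in log2(TPM + 1) between 3D and 2D for the 8 enzymes tested, with 95% intervals from limma, filled points past an adjusted p of 0.05 and a grey band over the middle 50% of all genes tested (-0.33 to 0.27). Dnmt1, Uhrf1 and Ezh2 lie left of the band, Tet2 and Tet3 right of it, and the intervals of Dnmt3a, Eed and Suz12 include 0.

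Within PRC2, the catalytic subunit was lower in 3D and its partners did not pass the test. Ezh2 (ENSMUSG00000029687, chromosome 6, 47530139 to 47595341) was at 97.7 and 99.7 TPM in 2D and at 61.7 and 67.2 TPM in 3D. The cultures did not overlap, and the means were 98.7 ± 1.43 and 64.5 ± 3.85 TPM (SD, n = 2 each). Ezh2 fell by 0.61 on the log2 scale (SE 0.06, 95% interval -0.76 to -0.45, limma adjusted p 0.00186).

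Eed (ENSMUSG00000030619, chromosome 7, 89954654 to 89980983), whose protein binds the mark that EZH2 makes, had the highest level of the members, at 174 and 169 TPM in 2D and at 158 and 161 TPM in 3D. Both 3D libraries lay a little below both 2D libraries, and the log2 fold change of -0.10 (SE 0.04, 95% interval -0.21 to 0.00284) did not pass the test (limma adjusted p 0.0927). Suz12 (ENSMUSG00000017548, chromosome 11, 79993106 to 80034123), a scaffold of the complex, was at 37.99 and 37.6 TPM in 2D and at 36.6 and 37.7 TPM in 3D. Its libraries overlapped, and the 95% interval of its log2 fold change, -0.16 to 0.11, leaves out a change as large as that of Ezh2.

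Relative to Suz12, Ezh2 stood at 2.57 and 2.65 in the 2D libraries and at 1.69 and 1.78 in the 3D libraries. Relative to Eed it stood at 0.562 and 0.590 in 2D and at 0.390 and 0.417 in 3D. These ratios are built from the TPM values given above. They restate the lower Ezh2 beside 2 partners that were not called, and add no separate support.

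Tested members did not overlap between the cultures in 7 of 8 cases (87.5%), against 77.5% of all genes tested. In the order of levels Eed was first in both cultures, followed by Ezh2, Dnmt1, Uhrf1, Suz12, Tet3, Tet2, Dnmt3a, Dnmt3b and Tet1, and the order was the same in 2D and 3D. Neighbours whose libraries overlapped were Tet3 and Tet2 in 2D and Uhrf1 and Suz12 in 3D. In 2D Eed was above 93.02% of all genes tested and Ezh2 above 85.5%, while Tet2, Tet3 and Dnmt3a were above 27.4%, 27.6% and 25.3%. All 10 genes are protein-coding and have the same position in GENCODE release M21. Of the genes that overlap a member on the same strand, Gm45120 within Eed was the highest, at 3.22 and 2.82 TPM in 2D and 1.88 and 1.70 TPM in 3D, and the others were at 0.352 TPM or less.

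The 5 genes whose levels over the 4 libraries ran most like those of Tet3, the called member with the largest change, were Tmem63a, Gigyf1, Xkr9, Myrf and Acox2, out of 9439 genes with a mean of at least 10 TPM. The likeness is the root mean square difference of centred log2(TPM + 1), which ran from 0.0224 for Tmem63a to 0.0285 for Acox2. With 4 libraries this describes a shared difference between the cultures and little more.

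Most genes of an S phase list were lower in 3D, as were Dnmt1, Uhrf1 and Ezh2. Of 25 S phase genes driven by E2F, limma called 20 lower in 3D (80.0%), against 27.1% of all genes tested. It called 0 higher, with 0 higher also at an unadjusted p under 0.05. The median log2 fold change of the list was -0.56, against -0.04 over all genes tested. Of the 5 not called, E2f1 was at -0.01, and E2f2 and Ccne2 were both at 0.01 in log2. Pole, the catalytic subunit of a replicative polymerase, fell by 1.79, Cdc6, a loader of the replicative helicase, by 1.16, and Cdc45, a helicase subunit, by 1.11 (log2, limma adjusted p 0.000344, 0.00263 and 0.000426). Rrm2, a subunit of the enzyme that hydroxyurea inhibits, fell by 0.52 (limma adjusted p 0.000958), and Pcna, the sliding clamp that also binds DNMT1, fell by 0.27 (limma adjusted p 0.0171). Mcm7 fell by 0.48 (limma adjusted p 0.0127). The count of the list called lower was 15 at an adjusted p under 0.01 and 17 with a replicate block in the fit. The calls of Mcm7 and Pcna were lost when 3D replicate 1 was left out, at adjusted p 0.0636 and 0.0893, that of Mcm7 also without 3D replicate 2 (0.0599), and that of Pcna also without 2D replicate 1 (0.0533). The part of cell cycle state, or of the longer drug treatment in 3D, in the lower Dnmt1, Uhrf1 and Ezh2 was not tested.

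The other genes of these pathways were taken from 5 lists with 64 tested genes. Of these 17 were higher and 13 lower in 3D, 46.9% in all against 50.5% of all genes tested, with a median log2 fold change of 0.01. Without 3D replicate 1 the count was 17 and without 3D replicate 2 it was 16, where 1 library of 3D is assumed to vary like the 2D libraries.

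Among 14 tested cofactors and readers of DNA methylation, 2 were higher and 4 lower in 3D (42.9% called, against 50.5% of all genes tested). Zbtb4, which binds methylated CpG, rose from 9.02 and 8.96 TPM to 14.0 and 14.1 TPM, by 0.59 in log2 (limma adjusted p 0.00335). Mbd1, another reader of methylated DNA, fell from 83.9 and 87.0 TPM to 63.6 and 61.4 TPM, by 0.44 (limma adjusted p 0.00261). Mbd4, a glycosylase that acts at methylated sites, fell by 0.48 (limma adjusted p 0.0149), a call lost without 2D replicate 1, 2D replicate 2 or 3D replicate 2 (adjusted p 0.0534, 0.0540 and 0.0695). Mbd3, a subunit of a remodelling and deacetylase complex, fell by 0.21 (limma adjusted p 0.0283), a call lost under 8 of the 13 alternatives, among them the fits without 2D replicate 1, 3D replicate 1 or 3D replicate 2 (adjusted p 0.0785, 0.135 and 0.0858). Trim28, a corepressor at methylated imprints, was at 173 and 175 TPM in 2D and at 170 and 171 TPM in 3D and was not called. Mbd2 was not called either, at 160 and 169 TPM in 2D and 171 and 173 TPM in 3D.

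Of 14 demethylation partners 5 were higher and 5 lower in 3D (71.4% called, against 50.5% of all genes tested). Gadd45b, a stress gene linked to demethylation, fell from 247 and 250 TPM to 71.0 and 75.7 TPM, by 1.75 in log2 (limma adjusted p 0.000211), and its relative Gadd45g fell by 0.98 (limma adjusted p 0.000675). Idh1, which makes the cosubstrate that TET enzymes need, rose from 37.0 and 35.0 TPM to 86.5 and 86.9 TPM, by 1.25 (limma adjusted p 0.000323). Xrcc1, a scaffold of base excision repair, fell by 0.37 (limma adjusted p 0.00651). The count was 6 in place of 10 without 2D replicate 2 and without 3D replicate 2.

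Among 9 tested alternative and accessory subunits of PRC2, 2 were higher and 1 lower in 3D (33.3% called, against 50.5% of all genes tested). Ezh1, the other catalytic subunit, which is typical of cells that do not divide, was at 15.7 and 17.6 TPM in 2D and at 21.7 and 23.7 TPM in 3D and rose by 0.42 in log2 (limma adjusted p 0.0175). Ezh2 fell while Ezh1 rose, so that the ratio of Ezh2 to Ezh1 was 6.24 and 5.66 in 2D and 2.85 and 2.84 in 3D. Ezh2 made up 86.2% and 84.98% of the sum of both in 2D and 74.0% in each 3D library. Rbbp4, a histone-binding subunit shared with other complexes, rose by 0.21 (limma adjusted p 0.0162), and Jarid2, which helps to recruit the complex, fell by 0.42 (limma adjusted p 0.0204). Rbbp7, at 117 and 141 TPM in 2D and 122 and 120 TPM in 3D, and Aebp2, at 107 and 124 TPM in 2D and 101 and 98.1 TPM in 3D, were not called. The calls of this list depended on single libraries, with 1 left without 3D replicate 1 and 0 without 3D replicate 2. Ezh1 was also not called without 2D replicate 1 (adjusted p 0.0540), and Jarid2 without 2D replicate 2 (0.0759). Aebp2 and Rbbp7 passed the threshold without 2D replicate 1 (0.0169 and 0.0303).

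In Polycomb repressive complex 1, which marks and compacts the same chromatin, 6 of 20 tested subunits were higher and 3 lower in 3D. The share called was 45.0%, against 50.5% of all genes tested. Kdm2b, which brings a variant of the complex to unmethylated CpG islands, rose from 16.6 and 17.7 TPM to 55.9 and 43.3 TPM, by 1.47 in log2 (limma adjusted p 0.00160), the largest change in the list. Pcgf6, a subunit of another variant, rose by 0.61 (limma adjusted p 0.00300), as did the ubiquitin ligase Ring1 (limma adjusted p 0.0124). Bmi1, Phc2 and Yaf2 were not called, and Bmi1 was at 56.8 and 56.4 TPM in 2D and at 56.5 and 52.7 TPM in 3D. Without 3D replicate 1 this list had 3 calls and without 3D replicate 2 it had 4, and Ring1 was not called in either fit (adjusted p 0.0590 and 0.0559).

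Of 7 tested enzymes that oppose Polycomb, 2 were higher in 3D and 0 lower by limma, with 1 lower at an unadjusted p under 0.05. The share called was 28.6%, against 50.5% of all genes tested. Bap1, a deubiquitinase, rose by 0.33 (limma adjusted p 0.00870) and its partner Asxl2 by 0.39 (limma adjusted p 0.0202). Neither call held without 3D replicate 1, where the log2 fold changes were 0.31 and 0.36. That of Asxl2 was also lost without 3D replicate 2, at a log2 fold change of 0.42. The gene lower at the unadjusted level was Kdm6a, a demethylase of the mark that EZH2 makes, at 61.5 and 92.7 TPM in 2D and at 49.5 and 52.3 TPM in 3D (limma adjusted p 0.0730). Its 2D replicates were 1.51-fold apart, and it passed the threshold when either 2D library was left out (adjusted p 0.00459 and 0.0440). Kdm6b was not called (limma adjusted p 0.0950) but was without 2D replicate 2 (0.0205). The count of this list was 4 without 2D replicate 2, 0 without 3D replicate 1 and 1 without 3D replicate 2.

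**Figure D3:**
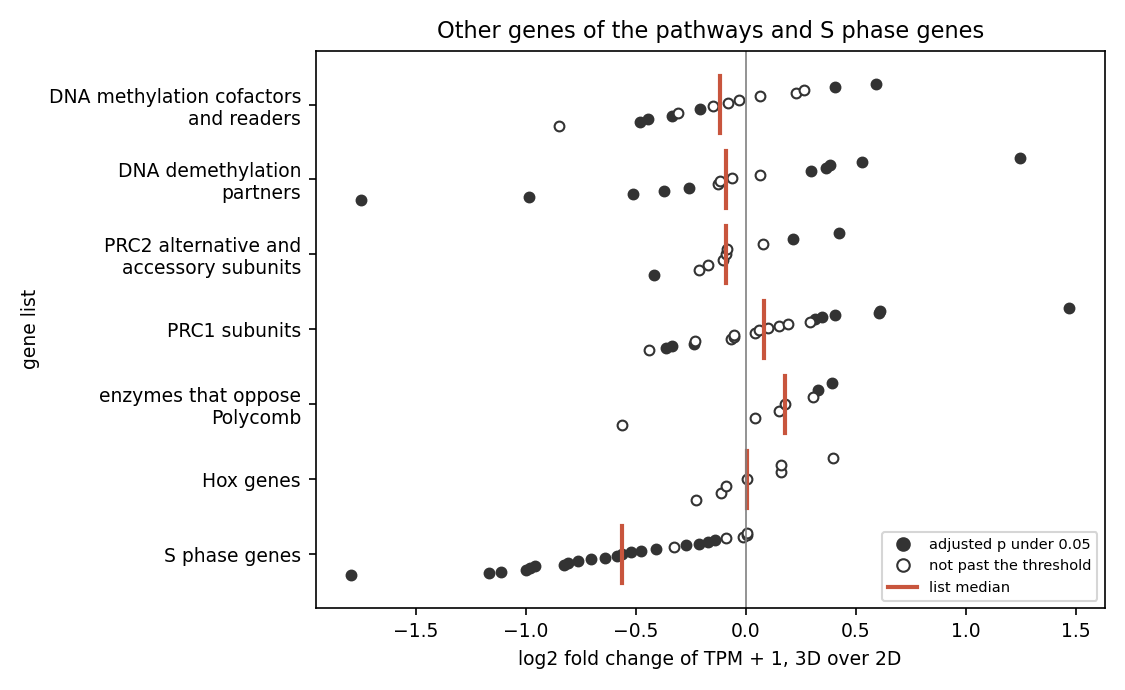
Difference in log2(TPM + 1) between 3D and 2D for each tested gene of 7 lists, with filled points past an adjusted p of 0.05, open points not past it and a red bar at each list's median. The 5 lists of pathway genes spread to both sides of 0, Kdm2b (1.47) and Gadd45b (-1.75) lie farthest out among them, and S phase genes lie almost all left of 0.

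**Figure D4:**
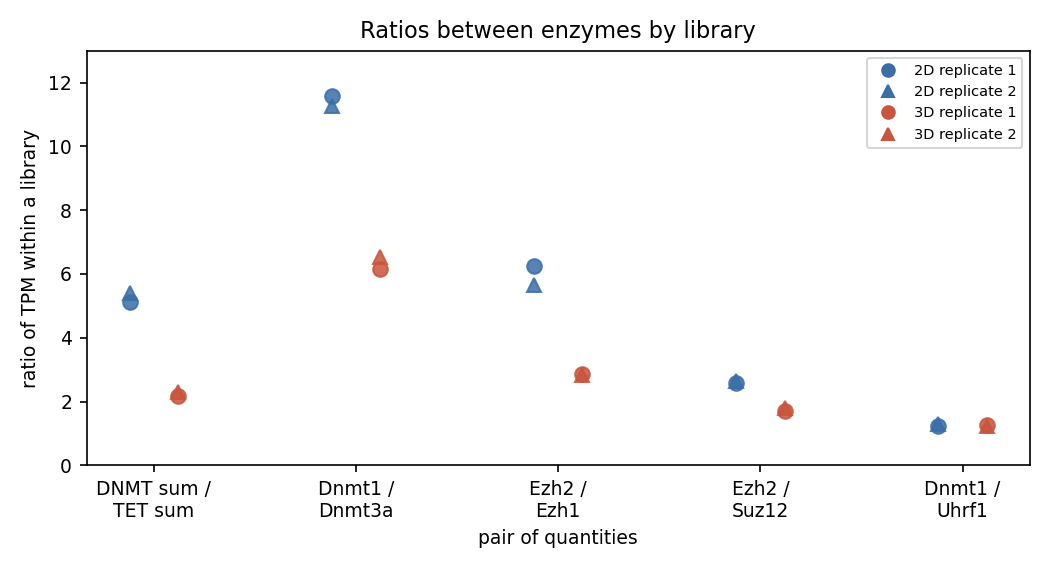
Ratios of TPM within each library for DNMT over TET sums, Dnmt1 over Dnmt3a, Ezh2 over Ezh1, Ezh2 over Suz12 and Dnmt1 over Uhrf1, with circles for replicate 1 and triangles for replicate 2. The first 4 ratios are lower in both 3D libraries, and that of Dnmt1 to Uhrf1 overlaps between the cultures.

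Genes that these enzymes are known to silence were described last. Of 26 Hox genes, classic Polycomb targets, 7 reached the minimum for testing. Limma called 0 of them in either direction, against 50.5% of all genes tested. At an unadjusted p under 0.05 there was 1, Hoxb8, named here after its values were seen, at 0.929 and 1.02 TPM in 2D and 1.66 and 1.54 TPM in 3D (limma adjusted p 0.0559). Hoxb8 reached the minimum for testing only through its 3D level. There was 1 call with centring on the median or quantile normalization and there were 2 with a constant prior variance. Hoxc6 was the highest, at 12.6 and 12.4 TPM in 2D and at 11.7 and 13.5 TPM in 3D, followed by Hoxb13 and Hoxb6, which were also not called.

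Among genes of cell growth under Polycomb control, 2 were higher and 1 lower of 4 tested. Cdkn2b, an inhibitor of cyclin-dependent kinases, rose from 97.8 and 96.0 TPM to 145 and 153 TPM, by 0.62 in log2 (limma adjusted p 0.000991). Its neighbour Cdkn2a, which encodes another such inhibitor and ARF, rose from 68.8 and 64.5 TPM to 101 and 124 TPM, by 0.74 (limma adjusted p 0.00565). Igf2bp1, a fetal RNA-binding protein, fell from 36.2 and 39.9 TPM to 21.96 and 19.9 TPM, by 0.83 (limma adjusted p 0.00212). Whether the level of any member bears on these genes was not tested.

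Of 16 germline genes that DNA methylation keeps silent in most tissues, 3 reached the minimum for testing. All 3 were called lower in 3D, against 27.1% of all genes tested, with 0 higher by limma or at an unadjusted p under 0.05. Genes below the minimum went both ways. Sycp3, Tuba3b, Taf7l and Tex11 were higher in both 3D libraries and Ddx4 and Tuba3a lower, all at 0.460 TPM or less. The remaining untested genes overlapped between the cultures. Tex101, a surface protein of germ cells, fell from 34.1 and 33.3 TPM to 13.1 and 13.5 TPM, by 1.27 in log2 (limma adjusted p 0.000442). Tex13b was at 160 and 172 TPM in 2D and at 117 in both 3D libraries, and fell by 0.51 (limma adjusted p 0.00197). Dpep3, a dipeptidase of the testis, fell by 0.96 (limma adjusted p 0.0163) from 1.38 and 2.20 TPM to 0.343 and 0.511 TPM, so it passed the minimum only through its 2D level, and its call was lost without 2D replicate 2 or 3D replicate 1 (adjusted p 0.0556 and 0.0704).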

How the data were processed

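RNA-seq libraries were made with a stranded mRNA kit. The submitters' processing notes name cutadapt 1.8.3, Trimmomatic 0.36 and DESeq2. The authors aligned reads with HISAT2 2.0.5 on GRCm38 and quantified Ensembl genes with StringTie 1.3.4. The TPM values of each library were deposited by the authors, unpooled. TPM are relative within a library and keep no sequencing depth, which is unknown here. The table also holds the authors' fold change and p-value, which were not used.

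Samples were grouped by their labels. After a filter at a mean of 1 TPM, log2(TPM + 1) was fitted in limma 3.58.1 (R 4.3.3) on culture alone, with eBayes variance trend and robust prior, and tests were two-sided. Sequences came from RefSeq (GRCm38.p6) and were searched with Python 3.11.15. The fit was also run on simulated data with known changes, and its outcome there is not given here.

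The members and lists were chosen with earlier results of these data known. Named genes are the 10 members, from each list up to 3 with the highest mean TPM and up to 3 called genes with the largest change, and the 5 genes most like the leading member. Others were chosen after their values were seen. Alternatives were other pseudocounts, filters, scalings and variance priors, a replicate block, a stricter threshold, and each library left out.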

Additional observations from a re-analysis of the deposited data

How the results depend on the processing

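Under the 13 alternatives the 8 tested members kept their direction and their side of the threshold. With other filters, the replicate block or a constant prior variance the fold change itself is unchanged by construction. Only the adjusted p-value could move in those settings. Over all 13 alternatives the log2 fold change ran from -0.60 to -0.45 for Dnmt1 and -0.52 to -0.45 for Uhrf1. It ran from -0.67 to -0.55 for Ezh2, 0.41 to 0.65 for Tet2 and 0.62 to 0.94 for Tet3. Dnmt3a ran from 0.18 to 0.36 with adjusted p-values from 0.0658 to 0.312. Dnmt3b and Tet1 could be tested only with no filter on low values (adjusted p 0.576 and 0.840).

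At an adjusted p under 0.01 there were 4223 calls over all genes and 14 over the other pathway genes. Leaving out each library gave 4720 (without 3D replicate 1) to 5954 calls over all genes, 16 (without 3D replicate 2) to 26 over the other pathway genes, against 7122 and 30. Fewer samples remain in these fits. Over all genes tested, deviations from the culture means did not follow the labels' replicate numbers (correlation -0.0549). This does not show whether libraries of the same number were prepared together. With the replicate block there were 6248 calls, 6061 of them shared, the same 5 members, and 24 other pathway genes.

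Of 620 values for 48 other named genes 29 were no longer past the threshold, 7 newly were and 8 changed sign, all for genes not called. Under quantile normalization these were Trim28 (0.0119) and Hoxc6 (-0.00995). With a library left out, ranges were -0.22 to 0.0532 for Rbbp7, -0.14 to 0.0359 for Phc2, -0.25 to 0.0747 for Hoxb6, -0.0888 to 0.0977 for Hoxc6 (-0.00838 without 2D replicate 2) and -0.50 to 0.0558 for Lyz2. The cause was not tested.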

Other observations

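Among the 96 listed genes with a mean of at least 10 TPM, 4 had replicates more than 1.5-fold apart in either culture, against 4.002% of all 9445 genes at that level, and they are named here after their values were seen. Zfp57, which protects methylation at imprinted regions, was at 54.9 and 28.5 TPM in 2D and at 50.4 and 25.2 TPM in 3D. The replicates of each culture thus differed more than the cultures did, and replicate 1 was the higher in both cultures. Zbtb38, a reader of methylated CpG, was at 115 and 120 TPM in 2D and at 87.3 and 47.9 TPM in 3D. Cbx6, a chromodomain subunit of Polycomb repressive complex 1, was at 14.9 and 28.2 TPM in 2D and at 23.4 and 27.5 TPM in 3D, and the remaining gene was Kdm6a.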
